A study of Mus musculus with 6 samples.

Results

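The Myc, Max and Mxd network is a small set of basic helix-loop-helix leucine zipper transcription factors that share the partner Max. The 10 genes Myc, Mycn, Mycl, Max, Mxd1, Mxd3, Mxd4, Mxi1, Mnt and Mga were chosen by gene symbol, with no threshold, out of 39017 genes counted in poly(A)-selected RNA from mouse embryonic stem (mES) cells. The list was drawn up with the results of both comparisons below already known. Every value of these genes that follows is therefore a description, given with its error and without a printed p-value. Where these genes are counted or named as passing a test threshold, that is a description too. All 10 genes were found in both deposited count tables, and all 10 passed the filter on low counts in both comparisons.

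Myc, Mycn and Mycl proteins bind DNA only as dimers with Max, mostly at the E-box CACGTG, and recruit histone acetyltransferases and other activators of transcription. The Mxd proteins, Mxi1 (also called Mxd2) and Mnt compete for Max and for the same sites, and bring in SIN3 complexes with histone deacetylases. Mga, a very large protein with a T-box domain besides its helix-loop-helix, pairs with Max within the PRC1.6 complex, which keeps germline genes silent in mES cells. In these cells Myc and Mycn are partly redundant in self-renewal, and both mRNAs and proteins are known to be short-lived.

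There were 6 libraries in 3 groups of 2. The untreated group was a Pol II degron line, in which both copies of Rpb1, the largest subunit of RNA polymerase II, carry mAID and GFP tags and the auxin receptor OsTIR1 sits at Rosa26 under doxycycline control. It had received doxycycline at 1 μg/ml for 12 h. The auxin group was the same line with the same doxycycline plus 500 μM auxin (IAA) for 6 h, which marks the tagged protein for degradation. The third group was wild-type V6.5 mES cells, the parental line of C57BL/6 × 129/sv origin. All were grown on irradiated embryonic fibroblasts with serum and LIF. The methods give harvest after 2 passages of the feeder cells, without saying whether feeders were still present. The degron line is 1 clone, and the wild-type group was deposited in a table of its own. Whether wild-type cells received doxycycline is not given, so tag, clone, doxycycline and library preparation cannot be told apart in that comparison. The study describes its replicates as biological, while the labels do not say whether the 2 libraries of a group came from separate cultures, so errors and p-values measure the spread between these libraries.

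Library totals ran from 14094022 to 15358714 counts. Counts in the 2 untreated libraries differed more than in the other pairs, with a mean chi-square per gene of 5.72 against 2.31 in the auxin pair and 2.60 in the wild-type pair. Polr2a, which encodes Rpb1, had 6623 and 6568 counts in untreated, 10396 and 10663 in auxin and 6866 and 7129 in wild-type libraries; its mRNA is no check of a treatment that removes the protein. The 8 mES cell markers summed to 3912 and 4496 counts per 1000000 counted (CPM) in untreated, 3241 and 3486 in auxin, and 6732 and 6677 in wild-type libraries, with none at 0. By the edgeR test used throughout, 0 of them were called higher and 4 lower after auxin, and 5 higher and 1 lower in wild-type cells. The 10 feeder fibroblast markers summed to 2608 and 2571, 2755 and 2973, and 1861 and 1879 CPM in the same order, mostly Fn1 and Vim, while Lum had at most 1 and Dcn at most 4 counts in any library. After auxin 1 was called higher and 0 lower, and in wild-type cells 1 higher and 5 lower. Beside these marker calls, edgeR called 2.56% of all genes tested higher and 1.64% lower after auxin. In wild-type cells it called 29.9% of all genes tested higher and 30.7% lower. The labels of the wild-type samples name retinas in the extraction text. The 10 retina markers summed to between 2.72 and 4.97 CPM in every library, and Crx and Rcvrn were at 0 in all 6. The part of these marker differences in the results below was not tested.

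The promoters of the network genes show which of them carry the letters that the network itself reads. Windows of 300 bases (250 before to 50 after a start) were taken from RefSeq on GRCm38.p6 for 9 of the 10 genes, in 11 windows, since Mxi1 has 3 starts; none was matched for Myc. The E-box CACGTG, which reads the same on both strands, was in 3 of these 11 windows, those of Max, Mnt and Mxd4, and in 7.15% of all 32851 windows. Among 26 windows of the textbook Myc target genes described below, 7 held it. The E2F letters TTTGGCGC and TTTCGCGC, searched on both strands, were in the window of Mycn alone among these genes and in 0.813% of all windows. Those 4 windows are shown 5′ to 3′ on the gene's strand with the matches in capitals. The Mycn window (chr12:12941787-12942086, minus strand) is shown because this gene differed most between the lines; its first 2 matches overlap and lie on opposite strands. The windows of Max (chr12:76962199-76962498, minus), Mnt (chr11:74830674-74830973, plus) and Mxd4 (chr5:34187661-34187960, minus) are shown for their E-boxes, which begin 3, 123 and 219 bases before the start.
Mycn: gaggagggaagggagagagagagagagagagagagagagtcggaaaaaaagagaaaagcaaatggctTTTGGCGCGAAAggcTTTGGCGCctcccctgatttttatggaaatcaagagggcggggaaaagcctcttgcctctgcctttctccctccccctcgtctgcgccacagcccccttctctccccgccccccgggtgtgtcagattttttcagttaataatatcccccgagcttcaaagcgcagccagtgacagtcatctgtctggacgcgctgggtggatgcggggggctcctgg
Max: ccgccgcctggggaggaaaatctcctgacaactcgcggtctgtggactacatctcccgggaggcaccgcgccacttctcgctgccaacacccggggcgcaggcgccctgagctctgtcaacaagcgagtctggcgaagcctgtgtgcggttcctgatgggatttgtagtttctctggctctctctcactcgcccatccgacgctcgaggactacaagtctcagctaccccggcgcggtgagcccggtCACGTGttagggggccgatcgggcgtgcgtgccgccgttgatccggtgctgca
Mnt: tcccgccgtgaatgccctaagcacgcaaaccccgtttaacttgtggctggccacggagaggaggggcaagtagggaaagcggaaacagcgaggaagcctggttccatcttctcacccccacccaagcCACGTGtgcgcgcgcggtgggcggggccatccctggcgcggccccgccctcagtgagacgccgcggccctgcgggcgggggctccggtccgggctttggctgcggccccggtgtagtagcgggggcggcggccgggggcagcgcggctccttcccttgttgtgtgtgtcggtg
Mxd4: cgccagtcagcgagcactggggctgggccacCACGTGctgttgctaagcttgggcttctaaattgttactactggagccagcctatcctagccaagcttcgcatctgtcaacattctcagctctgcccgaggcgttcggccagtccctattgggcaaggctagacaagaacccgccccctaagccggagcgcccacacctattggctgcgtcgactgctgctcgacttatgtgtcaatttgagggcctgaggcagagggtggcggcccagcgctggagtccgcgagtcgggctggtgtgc
A match is a description of these letters, not of binding, and nothing is drawn about a factor from a window without one.

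Levels can be compared between genes only per length, here as CPM scaled by the trimmed mean of M-values (TMM) over all 6 libraries and divided by the kilobases of merged exons in GENCODE vM21. In untreated cells the network was led by Mnt at 22.7 ± 1.14 (SD, n = 2), Max at 22.7 ± 1.199 and Mga at 22.3 ± 0.688 CPM per kb, whose ranges overlapped. Mycn followed at 7.32 ± 0.387, Mycl at 5.68 ± 0.537 and Myc at 4.40 ± 0.784 CPM per kb. Mxd3 (3.27 ± 0.504) and Mxi1 (3.24 ± 0.0185) overlapped, and Mxd1 (1.36 ± 0.0486) and Mxd4 (0.666 ± 0.0241) were the lowest. So the common partner, the broadly expressed repressor Mnt and Mga each stood above every Myc gene. Dividing by the longest transcript instead put Max first, at 42.1 CPM per kb in untreated cells, ahead of Mga at 24.5 and Mnt at 22.9.

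After 6 h of auxin Mnt (21.1 ± 1.04 CPM per kb) was first and did not overlap its neighbour, Mga (18.95 ± 0.648) and Max (18.4 ± 1.34) overlapped, and Mycn came next at 8.04 ± 1.38. Myc (5.50 ± 0.956) and Mycl (5.16 ± 0.130) overlapped, followed by Mxd3 (3.29 ± 0.124), Mxi1 (2.61 ± 0.0857), Mxd1 (1.29 ± 0.153) and Mxd4 (1.03 ± 0.185) with no overlap between neighbours. In wild-type cells the order was led by Mycn at 61.3 ± 1.28 CPM per kb, ahead of Mga (26.7 ± 0.397), Max (19.97 ± 0.214) and Mnt (14.8 ± 0.514). Mxi1 (8.004 ± 0.0889) and Mxd3 (7.12 ± 0.0258) then stood above Mycl (5.40 ± 0.183) and Myc (4.69 ± 0.779), with Mxd1 (1.27 ± 0.00569) and Mxd4 (0.674 ± 0.0248) again last. No neighbours overlapped in that group. Dividing by the longest transcript instead put Max first after auxin, at 34.1 CPM per kb, ahead of Mnt at 21.2 and Mga at 20.9. In wild-type cells it kept Mycn first (75.6) but put Max (37.0) above Mga (29.4).

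**Figure D1:**
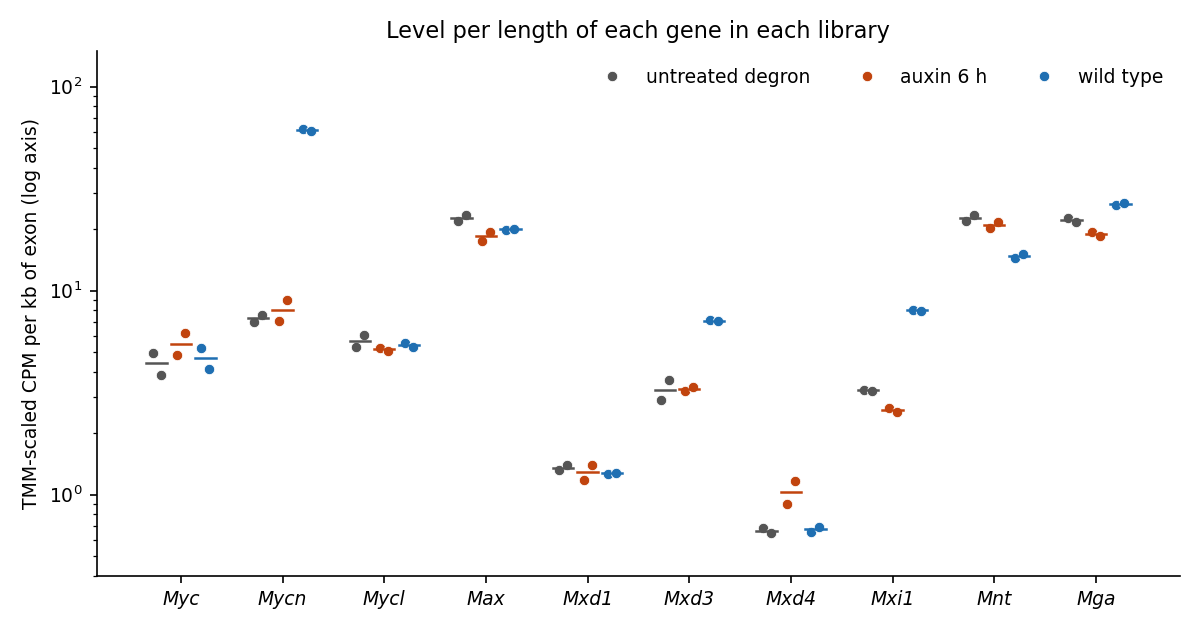
TMM-scaled CPM per kb of merged exons (log axis) for each network gene in the 2 untreated, 2 auxin and 2 wild-type libraries; points are libraries and bars are group means. Mycn lies near 7 to 9 in the degron libraries and near 61 in wild-type libraries, while Max, Mnt and Mga stay within about 14 to 27 in all 6.

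The first comparison set the degron line after 6 h of auxin against the same line untreated. No untagged cells given auxin were among these libraries, so auxin itself and loss of Pol II cannot be told apart. Of the Myc genes, Myc had 193 and 152 counts in untreated and 209 and 260 in auxin libraries. In CPM scaled by TMM over the 4 libraries compared, that was 12.1 ± 2.15 and 15.3 ± 2.59 (SD, n = 2 each). The groups overlapped, since untreated replicate 1 lay above auxin replicate 1 after scaling, and the fitted log2 difference, auxin minus untreated, was 0.34 ± 0.159 (SE; 95% interval -0.004 to 0.684). Counts are shares of a library, so a drop in RNA of every gene together is not seen, and fewer cells of a type cannot be told apart from less RNA per cell.

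Mycn had 333 and 364 counts in untreated and 371 and 460 in auxin libraries, with overlapping groups and a log2 difference of 0.15 ± 0.117 (95% interval -0.103 to 0.405). Mycl, the third Myc gene, had 307 and 356 against 338 and 317 counts, also overlapping, at -0.12 ± 0.106 (-0.351 to 0.109). For both the upper and lower bounds leave room for a difference of either sign. None of Myc, Mycn and Mycl stood below its untreated share of the library beyond the spread of the libraries. Such shares do not show a drop common to all genes.

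Max, the shared partner in the network, had 1128 and 1233 counts in untreated and 1003 and 1080 in auxin libraries. That was 82.8 ± 4.39 against 68.0 ± 4.60 CPM, both auxin libraries lay below both untreated ones, and the log2 difference was -0.28 ± 0.077 (95% interval -0.449 to -0.118). Mga had 5000 and 4855 against 4748 and 4396 counts, again without overlap after scaling, at -0.21 ± 0.069 (-0.362 to -0.062).

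Among the Max-binding repressors, Mxi1 had 318 and 320 counts in untreated and 290 and 269 in auxin libraries, without overlap, at -0.29 ± 0.104 (-0.519 to -0.07). Mxd4 went the other way. Its counts were 83 and 80 in untreated and 122 and 153 in auxin libraries, and its level was 5.72 ± 0.205 against 8.99 ± 1.57 CPM. Both auxin libraries were above both untreated ones, by 0.65 ± 0.185 on the log2 scale (0.252 to 1.05), or 1.57-fold. It was the largest fitted difference of the 10 and also rested on the lowest counts in the untreated libraries. Mnt (1454 and 1583 against 1499 and 1562 counts, log2 difference -0.09 ± 0.071), Mxd1 (134 and 143 against 133 and 153 counts, -0.06 ± 0.155) and Mxd3 (99 and 125 against 121 and 124 counts, 0.03 ± 0.172) all had overlapping groups.

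Of the 10 genes, 0 passed an adjusted p of 0.05 in either direction by the edgeR test, with p-values adjusted over all 16128 genes tested (Benjamini-Hochberg), and DESeq2 also called 0. Among all genes edgeR called 4.2%, 2.56% higher and 1.64% lower, and DESeq2 called 1.27%. At an unadjusted p under 0.05 there were 4 of the 10 by edgeR, against 3245 of all 16128 genes. By DESeq2 there were 3, and the share of all genes was not counted for that test, so nothing is read from it. The groups did not overlap for 4 of 10 genes (Max, Mxd4, Mxi1 and Mga), against 49.9% of all genes tested, so nothing is read from that count. The members' median log2 difference was -0.07, beside 0 over all genes. Scaled to the 13 mitochondrially encoded mRNAs, the median of all genes moved to -0.17 and Mycn (-0.02) and Mxd3 (-0.13) changed sign, while relative to that median Mxd4 was at 0.65 and Max at -0.28. The 0 depended on the fit and on the untreated libraries. With all 3 groups in 1 fit, Mxd4 was called higher and Max, Mxi1 and Mga lower, where 7.5% of all genes were called. Without untreated replicate 1, Myc (0.53) and Mxd4 (0.68) were called higher and Max (-0.34) and Mga (-0.19) lower, where 16.1% of all genes were called. Without untreated replicate 2, Mxd4 (0.61) was called higher and Mga (-0.25) lower, where 6.6% of all genes were called.

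**Figure D2:**
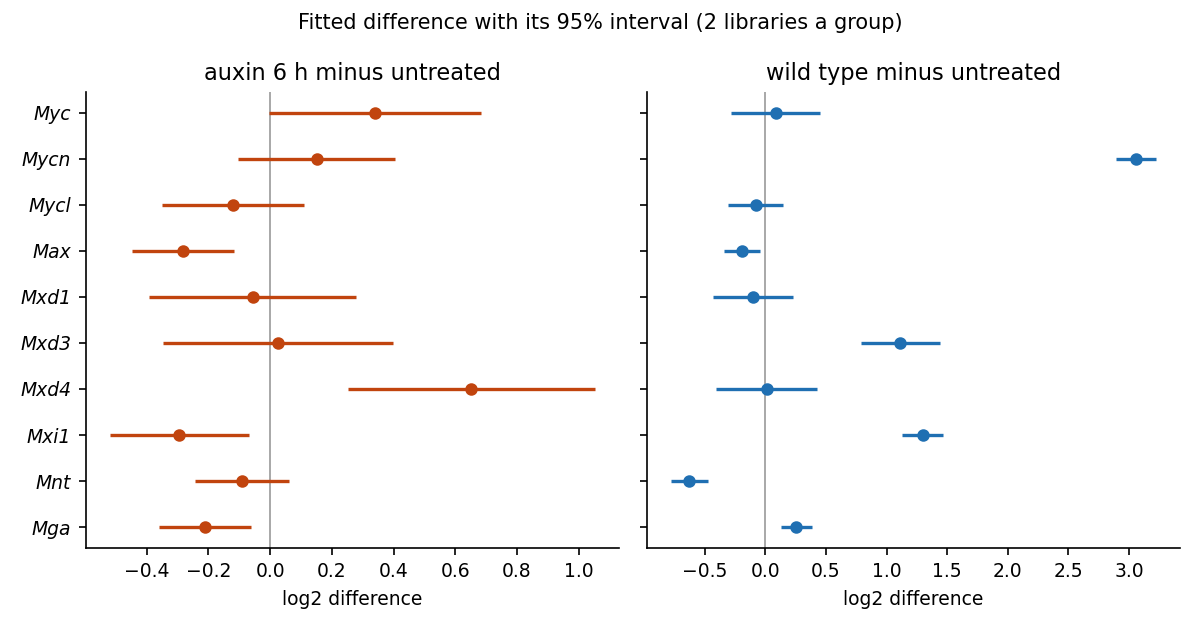
Fitted log2 difference of each network gene with its 95% interval, auxin minus untreated on the left and wild-type minus untreated on the right, from edgeR with 2 libraries a group; the 2 panels have different scales. Intervals of Max, Mxd4, Mxi1 and Mga exclude 0 on the left, and Mycn stands at 3.06 on the right, where scaling to mitochondrial mRNAs would shift every gene by about -2.104 and turn the sign of Myc, Mxd3, Mxd4, Mxi1 and Mga.

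The second comparison set wild-type cells against the untreated degron clone, and shares the untreated libraries with the first. Mycn, the highest of the Myc genes per length in all 3 groups, had the widest difference. There were 2910 and 2852 counts of it in wild-type libraries against 333 and 364 in untreated ones. Its level was 198.5 ± 4.11 against 23.8 ± 1.26 CPM (SD, n = 2 each), the groups lay far apart, and the log2 difference, wild-type minus untreated, was 3.06 ± 0.073 (SE; 95% interval 2.90 to 3.22), or 8.33-fold. Only 59 of 15778 genes tested had a higher fitted difference. It kept its sign under the mitochondrial scaling, at 0.97, where the median of all genes was -2.104.

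The other Myc genes gave no such difference. Myc had 202 and 161 counts in wild-type libraries against 193 and 152, at 0.08 ± 0.167 (-0.284 to 0.451), and Mycl had 317 and 305 against 307 and 356, at -0.08 ± 0.103 (-0.307 to 0.145). Both overlapped between the lines, and their intervals leave out any difference near that of Mycn. Mycn therefore made up 85.2% and 86.5% of the summed Myc, Mycn and Mycl level per length in wild-type libraries, against 40.7% and 43.4% in untreated and 41.2% and 44.5% in auxin libraries.

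Max had 1012 and 1037 counts in wild-type against 1128 and 1233 in untreated libraries, 70.6 ± 0.759 against 80.7 ± 4.26 CPM, at -0.19 ± 0.07 (-0.346 to -0.041). The ratio of Mycn to Max per kb of merged exons was 3.14 and 3.00 in wild-type libraries and 0.322 in both untreated ones. After auxin it was 0.404 and 0.465.

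The repressors split in direction. Mxi1 had 781 and 776 counts against 318 and 320, or 53.6 ± 0.592 against 21.8 ± 0.123 CPM, at 1.30 ± 0.078 (1.13 to 1.47). Mxd3, which is known from proliferating cells in S phase unlike its relatives, had 240 and 241 counts against 99 and 125, at 1.11 ± 0.147 (0.79 to 1.44). Neither overlapped, with folds of 2.46 and 2.16, but under the mitochondrial scaling both were below 0 (-0.80 and -0.97) and above the median of all genes by 1.31 and 1.14. Mnt was lower in wild-type cells under either scaling, with 947 and 1004 counts against 1454 and 1583, at -0.63 ± 0.07 (-0.781 to -0.474), or 0.647-fold.

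Mga had 5745 and 5922 counts against 5000 and 4855, at 0.25 ± 0.058 (0.126 to 0.382) under TMM, and -1.85 under the mitochondrial scaling. Mxd1 (127 and 129 against 134 and 143 counts) was at -0.10 ± 0.151 with groups that did not overlap by a narrow margin. Mxd4 (79 and 84 against 83 and 80 counts) was at 0.01 ± 0.189 with overlapping groups, and its counts in both lines lay under those after auxin.

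In this comparison 4 of the 10 genes were called higher (Mycn, Mxd3, Mxi1 and Mga) and 2 lower (Max and Mnt), where 60.6% of all 15778 genes tested were called, 29.9% higher and 30.7% lower, so nothing is read from these counts. The groups did not overlap for 7 of 10 genes, against 81% of all genes tested. The median log2 difference was 0.05 for the 10 genes and -0.01 for all genes tested. DESeq2 called 5 of the 10, leaving out Max, where it called 38.9% of all genes. Max also lost its call without untreated replicate 2 (-0.14) and without either wild-type replicate (-0.17 and -0.20), and Mga lost its call without wild-type replicate 1 (0.28) or 2 (0.25). The 13 mitochondrial mRNAs took 0.34% and 0.40% of counts in untreated, 0.40% and 0.44% in auxin and 1.53% and 1.5% in wild-type libraries. Scaled to them, 73 genes were called higher and 15235 lower in wild-type cells, and 167 higher and 52 lower after auxin, instead of 413 and 264.

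Added over the family per length, Myc, Mycn and Mycl came to 17.3 and 17.5 CPM per kb in untreated, 17.1 and 20.3 in auxin, and 73.0 and 69.9 in wild-type libraries. The ratio of that sum to the sum of Mxd1, Mxd3, Mxd4, Mxi1 and Mnt was 0.575 and 0.540 in untreated, 0.606 and 0.669 in auxin, and 2.31 and 2.17 in wild-type libraries. These ratios are within a library and so do not move with its scaling, but they do depend on the gene length used. Within the 4 Mxd genes, Mxi1 made up 39.8% and 36.3% of the summed level per length in untreated, 33.5% and 30.0% in auxin, and 47.1% and 46.7% in wild-type libraries. They compare mRNAs; protein levels were not measured here.

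**Figure D3:**
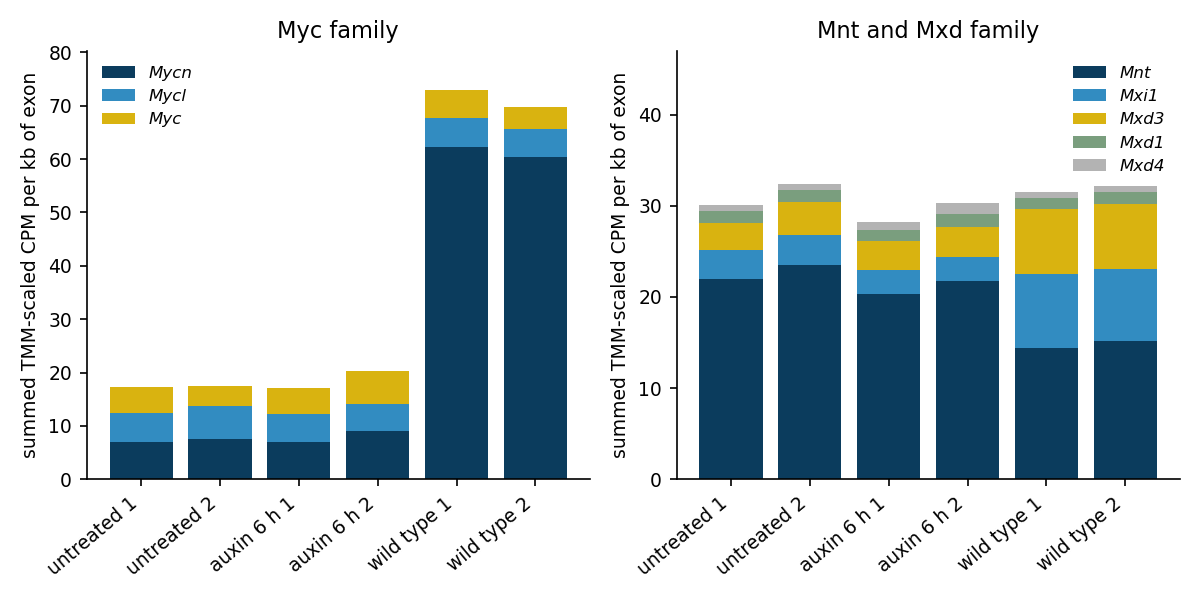
Summed TMM-scaled CPM per kb of exon in each of the 6 libraries, stacked by gene, for Myc, Mycn and Mycl on the left and for Mnt and the 4 Mxd genes on the right. The Myc sum is 17.1 to 20.3 in the degron libraries and 69.9 to 73.0 in wild-type libraries, with Mycn as the part that differs, while the repressor sum stays near 28 to 33 as Mnt is lower and Mxi1 and Mxd3 higher in wild type.

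Genes that work with the network were counted in 6 lists of 71 genes in all, which were also written with earlier results known; p-values for them are adjusted over all genes tested. All 71 were tested. After auxin, 0 genes of any list were called higher, where 2.56% of all genes were called higher and 1.64% lower. With lists this small, nothing is read from that 0. The Mlx branch, a parallel set of dimers that senses glucose and shares some of the Mxd proteins, had 0 of 3 called. Mlxip was at -0.03 ± 0.075 and Mlx at -0.04 ± 0.113. Among 8 corepressors of the Mxd proteins only Sin3a, the scaffold of the SIN3 complex, fell by 0.33 on the log2 scale (1865 and 1871 against 1641 and 1561 counts, edgeR adjusted p = 0.0154). Among 10 PRC1.6 partners of Mga only Rybp fell, by 0.26 (1347 and 1390 against 1249 and 1206 counts, edgeR adjusted p = 0.0476); that call was lost with DESeq2, with library totals as the scaling, under the mitochondrial scaling, with no filter, with at least 10 counts in every library and with all 3 groups in 1 fit. The 10 cofactors had 0 called, with Trrap, the scaffold of Myc-recruited acetyltransferases, at 0.19. Of 12 genes of Myc protein turnover only Aurka, the kinase that stabilises N-Myc protein, fell, by 0.36 (1366 and 1461 against 1134 and 1235 counts, edgeR adjusted p = 0.0192).

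Among 28 textbook Myc target genes, 5 fell and 0 rose after auxin: Gnl3 (nucleostemin, log2 difference -0.40, edgeR adjusted p = 0.00663), Ppan (-0.38, 0.00917), Wdr43 (-0.27, 0.0379), Nop16 and Rrs1. The share is 5 of 28 beside 1.64% of all genes called lower, and the list's median was -0.07 beside 0 over all genes; the list was not tested as a set. These list calls rested on both auxin libraries, and without either one 0 genes of the SIN3, PRC1.6, turnover and target lists were called, while without untreated replicate 1 there were 10 target genes. Under the mitochondrial scaling and with no filter 0 genes of these 4 lists were called. DESeq2 called 2 of the targets, and under the mitochondrial scaling 1 of 28 targets was above 0.

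In wild-type cells, against 60.6% of all genes called, the SIN3 and NCoR corepressors had 4 of 8 higher and 1 lower. Sin3a was higher (0.67, edgeR adjusted p = 2.36e-06), as were Hdac2 (0.38) and Sap30 (0.30), while its paralog Sin3b was lower (-1.25, edgeR adjusted p = 3.32e-08), with 3903 and 3717 counts in untreated and 1575 and 1610 in wild-type libraries. PRC1.6 partners had 5 of 10 higher and 2 lower: Cbx3, a heterochromatin protein, at 1.49, Wdr5 at 0.46 and L3mbtl2 at 0.42, against Yaf2 at -0.82 and E2f6 at -0.35. Cofactors had 5 of 10 higher, led by the ATPases Ruvbl2 (0.79) and Ruvbl1 (0.55) and by Ep400 (0.49), and 1 lower, Zbtb17 (Miz-1, through which Myc represses), at -0.34. The Mlx branch again had 0 of 3 called, with Mlxip at -0.12 and Mlx at -0.06. These directions are those under TMM; under the mitochondrial scaling every gene of these 4 lists was below 0, and the lists' medians were -0.04 (Mlx), 0.11, 0.18 and 0.19 relative to that of all genes.

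The turnover list had 8 of 12 higher and 2 lower in wild-type cells, beside 29.9% and 30.7% of all genes, with a median of 0.33. Aurka (0.97, edgeR adjusted p = 2.58e-07), Cip2a (0.94, edgeR adjusted p = 4.54e-07) and Usp28 (1.14, edgeR adjusted p = 1.31e-06) led; each is known to protect Myc proteins from degradation. Bin1, a protein that binds and restrains Myc, was lower at -1.48 (888 and 713 against 303 and 265 counts, edgeR adjusted p = 1.03e-06). The ubiquitin ligase genes Skp2 (0.78), Fbxw7 (0.40) and Huwe1 (0.20) were called higher too. The genes called higher therefore did not all act 1 way on Myc proteins. The target list had 13 of 28 higher and 4 lower, beside the same shares of all genes, with a median of 0.11. Its 17 calls in either direction stand beside 60.6% of all genes called, so nothing is read from their number. Ldha, the enzyme of lactate production, was at 2.14 (4134 and 4517 against 19017 and 18702 counts, edgeR adjusted p = 8.98e-10), Polr1b, a subunit of RNA polymerase I, at 0.89 and Cad, which opens pyrimidine synthesis, at 0.83. The serine pathway enzyme Shmt2 (-0.67), Npm1 (-0.41) and Srm (-0.33) were lower, along with Cdk4. Under the mitochondrial scaling Ldha was the one target above 0 and none of the turnover genes were. Without wild-type replicate 1 or 2 there were 11 targets called rather than 17.

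**Figure D4:**
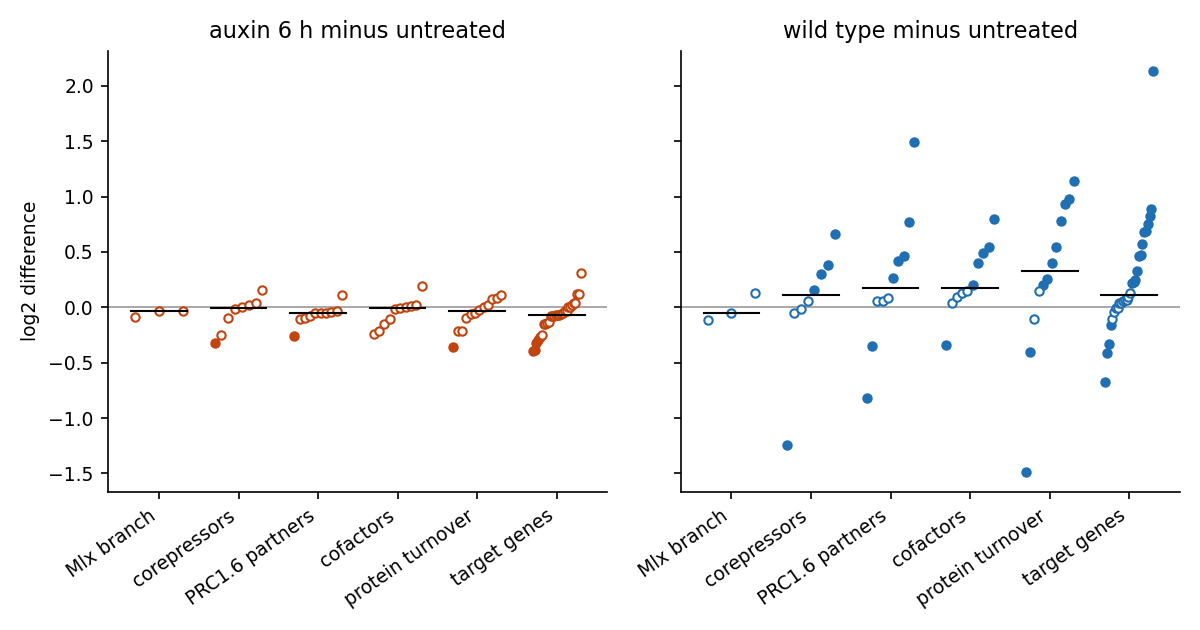
Log2 difference of each gene in 6 lists of network partners and target genes, auxin minus untreated on the left and wild-type minus untreated on the right; filled points passed the edgeR test at an adjusted p of 0.05, open points did not, and black lines are list medians. After auxin all values lie between -0.40 and 0.31 and the 8 filled points are below 0; in wild type they run from -1.48 to 2.14 under TMM, and under the mitochondrial scaling all but Ldha would lie below 0.

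The genes whose pattern over the 6 libraries was most like that of Mycn were Eno1 (Pearson r = 0.9995), Pfkl (0.9993), Cmas, Epcam and Tmem180 (0.9992 each), out of 10969 genes whose mean over the libraries reached 100 counts. Pfkl and Eno1 are glycolytic enzymes, with 1763 and 1868 counts for Pfkl in untreated, 2098 and 2252 in auxin, and 7553 and 7333 in wild-type libraries. There were 2010 genes with r over 0.95 to Mycn. Most like Myc were Efs (0.971), Stard10 (0.951), Setd1b (0.9503), Brat1 (0.946) and Pitpnm2 (0.938), with only 3 genes over 0.95. Efs had 1187 and 1068, 1304 and 1408, and 1187 and 1136 counts in the 3 groups. These correlations are over libraries that share their line or treatment, and they describe likeness only.

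The position of Mycn was looked at after its value was seen. The gene lies on chr12:12936093-12941914 of mm10, on the minus strand, with 3295 bases in 4 merged exons and no annotated overlap. Within 1 Mb on each side the table held 17 genes, of which 6 were tested, Mycn included. In wild-type cells its coding neighbours Ddx1 (3870 and 3808 against 3436 and 3594 counts) and Fam49a (111 and 88 against 77 and 113) were at 0.14 ± 0.058 and 0.08 ± 0.218 and not called (edgeR adjusted p = 0.0565 and 0.772). Nbas was lower, at -0.29 ± 0.08 (edgeR adjusted p = 0.00869), as was the processed pseudogene Gm4294 at -0.58 ± 0.087 (edgeR adjusted p = 0.000135), whose reads may be shared with its parent gene; under the mitochondrial scaling, which moved the median of all genes to -2.104, Ddx1, Fam49a and Gm6736 would lie below 0 too. Gm6736, with 8 to 18 counts a library, was not called. The difference at Mycn was thus not shared at its size by any tested gene within 1 Mb.

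**Figure D5:**
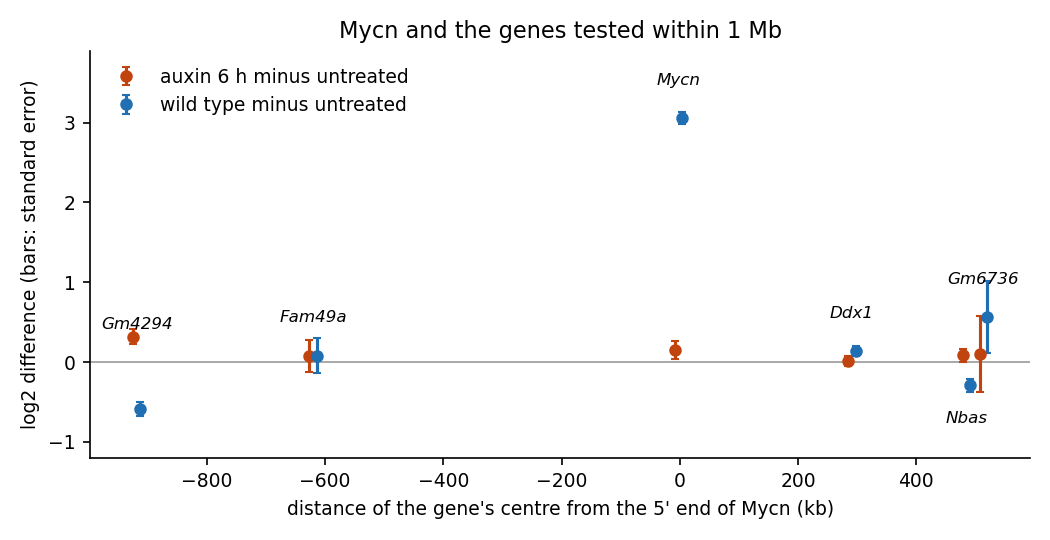
Log2 difference (points, with standard error bars) of the 6 genes tested within 1 Mb of Mycn against the distance of each gene's centre from the 5′ end of Mycn in kb, for auxin minus untreated and wild-type minus untreated. Mycn is at 3.06 in wild type and 0.15 after auxin, and the other 5 lie between -0.58 and 0.56 (TMM scaling; the mitochondrial scaling shifts the wild-type points by about -2.104).

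The positions of the other genes set some limits on their counts. Myc is at chr15:61985391-61990374, Mycl at chr4:122995652-123002485, Mnt at chr11:74830920-74845725 and Mga at chr2:119897228-119969581, all on the plus strand and without annotated overlap. Max (chr12:76937269-76962201, minus) and Mxd1 (chr6:86647042-86669161, minus) share no exonic base with a gene on their own strand. Mxd3 (chr13:55325168-55329823, minus) shares 105 exonic bases, 4.43% of its exons, with Prelid1 on the opposite strand. Mxd4 (chr5:34173883-34187720, minus) shares 514 bases (6.06%) with Gm42846, and Mxi1 (chr19:53310518-53375810, plus) shares 194 bases (2.84%) with genes on the opposite strand. Whether counting used strand is not given in the sources used here, so reads of these 3 genes and their antisense partners cannot be told apart in those stretches.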

How the data were processed

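Poly(A) RNA of 6 mES cell libraries was sequenced as paired-end reads. Per the labels and the methods, the authors aligned reads to mm10 with HISAT2 2.1.0, named Salmon and HTSeq for counting at GENCODE genes, and tested with DESeq2; the annotation release and strand setting are not given in the sources used here. The deposited values are raw counts per gene, in 2 tables of 39017 genes that were joined by gene identifier, since 27 symbols differed. Columns with the authors' fold changes and p-values were not used, nor were 2 count columns that match no sample here.

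Members, gene lists, marker lists and promoter motifs were chosen with earlier results of these data known. Groups came from the labels. Each comparison was fitted on its own 4 libraries with the quasi-likelihood test of edgeR 4.0.16 in R 4.3.3 (TMM scaling, filterByExpr with a minimum count of 10, prior count 0.125, Benjamini-Hochberg adjustment over all genes tested, called under 0.05). Standard errors were taken from the fitted difference and its F statistic. The test was checked on simulated data. Lists were described by up to 3 called genes per direction with the smallest p. Where none was called, the 2 with the highest counts were given. Naming Nop16, Rrs1, Cdk4, Skp2, Fbxw7, Huwe1 and the genes near Mycn followed their values. The values of 2 list genes are not reported here. Gene lengths were merged exons of GENCODE vM21, matched by identifier for 37607 genes. Alternatives were DESeq2 1.42.0, other scalings and filters, 1 fit of all groups, a replicate block, a prior count of 5, and leaving out each library. Depth was 14094022 to 15358714 counts a library, and no spike-in was used for scaling here.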

Additional observations from a re-analysis of the deposited data

How the results depend on the processing

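After auxin 677 genes were called, and this number moved widely: 236 with DESeq2, 219 under scaling to mitochondrial mRNAs, 55 with no filter, 432 with at least 10 counts in every library, 1235 with all 3 groups in 1 fit, and 179 to 2724 when single libraries were left out (2724 without untreated replicate 1 and 1114 without untreated replicate 2, 184 and 179 without auxin replicates 1 and 2). Network genes called after auxin, 0 higher and 0 lower, became 1 and 3 with all 3 groups in 1 fit, and 0 to 2 in each direction when single libraries were left out. Of these calls 61.0% were higher, against 76.3% under the mitochondrial scaling and 45.9% with all groups in 1 fit. The causes were not tested.

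In wild-type cells 9555 genes were called, and 15308 under the mitochondrial scaling, which left 1 network gene called higher and 9 lower instead of 4 and 2. That scaling reversed Myc (-2.02), Mxd3 (-0.97), Mxd4 (-2.08), Mxi1 (-0.80) and Mga (-1.85), since it moved the median of all genes by -2.104; the cause was not tested. Network genes called lower were 1 with DESeq2, where 38.9% of all genes were called, and 1 with no filter, where 32.5% were.

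The labels do not say whether same-numbered libraries were paired. Their deviations correlated at 0.113 (untreated and auxin) and -0.059 (untreated and wild-type) over 10969 genes, and with 2 pairs this cannot decide the question. With the replicate number as a block, 1930 genes were called after auxin, and 1 network gene higher and 2 lower. Of 260 log2 differences of network genes under the alternatives, 220 kept direction and side of the threshold, 15 passed it, 7 lost it and 18 changed sign, 15 of them in genes not called in the fits reported above. Besides those named, Mycn (-0.019) and Mxd3 (-0.131) after auxin changed sign under the mitochondrial scaling, and Mxd4 in wild-type cells with library totals as the scaling (-0.047) and with at least 10 counts in every library (-0.007). With single libraries left out, differences after auxin ran from -0.032 to 0.313 for Mycn, -0.18 to 0.056 for Mxd1 and -0.127 to 0.189 for Mxd3, and in wild-type cells from -0.09 to 0.276 for Myc, -0.174 to 0.017 for Mycl and -0.028 to 0.057 for Mxd4. With 2 libraries a group, and counts of 79 to 153 for Mxd4, differences under about 0.4 on the log2 scale were within the interval of such a gene.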
